A study of Rattus norvegicus with 82 samples.

Results

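Rat hearts taken 6 h after 3 mg/kg vinblastine were compared with hearts taken 6 h after saline. The comparison was set by the sample titles: 6 arrays were labelled as vinblastine 3 mg/kg at 6 h and 6 as saline at 6 h, which makes 12 of the 82 arrays of the study. The arrays held heart RNA of male Wistar rats, strain Crl:Wi(Han), and the treatment protocol gives 6 rats for each group and time. Vinblastine animals were given the drug intravenously in 0.9% saline, and saline animals received 0.9% saline alone by the same route. The labels give neither the age of the animals nor the region of the heart, and the study is titled as one of the cardiotoxicity of tubulin binders. Where a dose or a time is set beside the main comparison, the groups are hearts 6 h after 0.5 mg/kg vinblastine, hearts 24 h after 3 mg/kg vinblastine and hearts 24 h after saline, with 6 arrays each.

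Vinblastine is a vinca alkaloid that binds tubulin dimers and stops them from joining into microtubules. Cells sense the pool of unpolymerised tubulin: when it grows, tubulin mRNAs are degraded while they are being translated, a loop known as tubulin autoregulation, in which the ribosome-binding protein encoded by Ttc5 recognises the nascent tubulin chain. Loss of microtubules is also known to raise actin tension and the activity of the SRF and YAP transcription programmes, and in cardiomyocytes microtubules bear load and carry mRNA and vesicles.

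The 12 arrays had median intensities between 57.8 and 63.3, and the ratio of the 3' to the 5' control probe set of Gapdh, which rises as RNA degrades, was 1.19, 1.25 and 1.58 (lowest, median and highest) in vinblastine hearts and 1.202, 1.24 and 1.44 in saline hearts. All 9 measured cardiomyocyte markers were bright, with summed intensities of 180500, 188800 and 198700 in vinblastine hearts and 163700, 186500 and 200400 in saline hearts, so the label of heart tissue stood. None of the 9 passed the test, and their log2 changes lay between 0.01 and 0.07. Tnnt2, cardiac troponin T, had intensities of 23100, 24080 and 25170 in vinblastine hearts, against 20420, 23350 and 24860 in saline hearts, and Myh6, the adult myosin heavy chain of the rat ventricle, had 23270, 24050 and 25520 in vinblastine hearts, against 21340, 24370 and 25970 in saline hearts.

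One vinblastine array stood apart. The array labelled vinblastine replicate 1 correlated with the other arrays of its group at a mean r of 0.946 over the genes tested, where the other vinblastine arrays reached 0.980 to 0.984 and the saline arrays 0.987 to 0.991. Its root mean square distance in log2 to the median profile of the rest of its group was 0.565, against 0.342 to that of hearts 24 h after 2 mg/kg colchicine, the nearest other group. On a scale along the mean difference of the groups, where the saline mean is 0 and the vinblastine mean is 1 and each array is left out of its own mean, it lay at 1.64, the other vinblastine arrays at 0.589 to 0.885 and the saline arrays at -0.0361 to 0.184. One array of that colchicine group, replicate 1, lay in turn at 0.505 from its own group and at 0.157 from hearts 6 h after 0.5 mg/kg vinblastine, and replicate 6 at 0.5 mg/kg lay at 0.288 from its own group and at 0.153 from hearts 6 h after 2 mg/kg colchicine. Whether the labels of these arrays are right was not settled, and results are given with all arrays as labelled. The description of vinblastine replicate 1 in the labels ends in a suffix that 6 arrays of the study carry, saline replicate 2 at 6 h among them, and what the suffix means is not stated. Where leaving out replicate 1 ended the call of a gene described at 6 h, or moved its value or the count of a list by more than 1.5 times, the value without it is given.

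**Figure D1:**
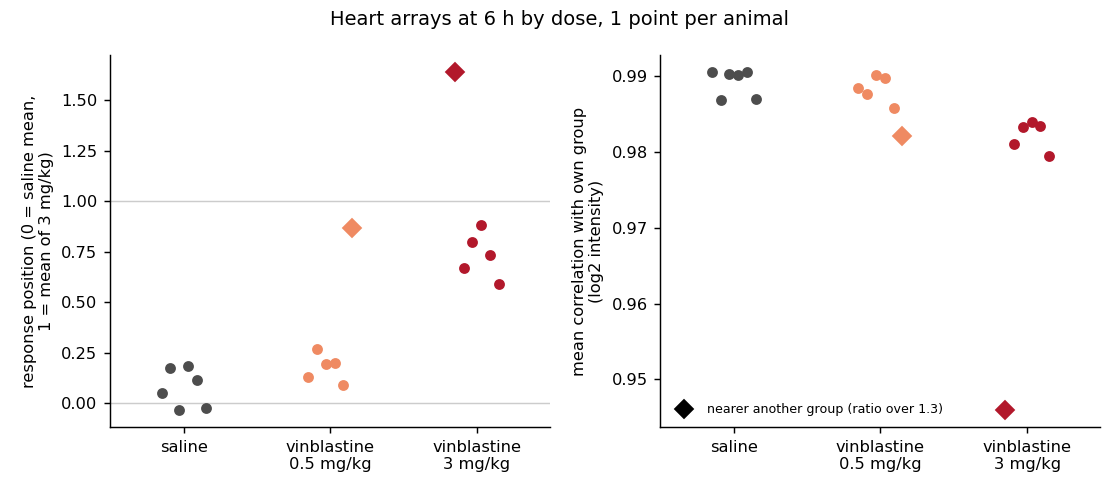
Position of each heart array at 6 h along the response to 3 mg/kg vinblastine (left; 0 is the saline mean and 1 the mean of the 3 mg/kg arrays, each array left out of its own mean) and mean correlation of each array with the others of its group (right), for saline, 0.5 mg/kg and 3 mg/kg. Each point is 1 animal, and diamonds mark the arrays nearer to another group by a ratio over 1.3: replicate 1 at 3 mg/kg lies at 1.64, above the other 5 at 0.589 to 0.885, and replicate 6 at 0.5 mg/kg lies at 0.869, above the other 5 of its group.

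Of 11319 genes tested with limma on log2(intensity + 16), 2637 (23.3%) differed between vinblastine and saline hearts at an adjusted p under 0.05. Of these, 1769 rose (15.6% of the genes tested) and 868 fell (7.67%). After quantile normalization the split was 1463 higher and 1313 lower. The median of the called changes was small, 0.367 on the log2 scale, and 156 genes (1.38%) changed at least 2-fold, 129 upwards (1.14%) and 27 downwards (0.239%). For 804 genes (7.1%) the 6 vinblastine and the 6 saline values did not overlap, 545 with vinblastine higher (4.81%) and 259 with it lower (2.29%), and 794 of these were among the 2637. Without replicate 1 the number of calls was 1381 (12.2%), with 942 higher (8.32%) and 439 lower (3.88%), and 1307 of them were shared with the 2637. With the 12 arrays fitted alone, without the spread of the other groups, it was 958 (8.46%), 593 higher (5.24%) and 365 lower (3.22%), of which 947 were shared. Without the 10 arrays of the whole study whose distance to their own group exceeded that to another by a ratio over 1.3, 1160 genes were higher (10.2%) and 625 lower (5.52%). The median log2 change of all genes tested was 0.00594, so the median of a list is read against a value near 0. A list with a median near 0 can still hold a larger share of calls than all genes. Counts of calls in a list are to be read against the shares of all genes, 15.6% higher and 7.67% lower.

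The 3 largest falls of all genes called were tubulins. Tuba4a (1371542_at), an alpha tubulin isotype of muscle and nerve, had intensities of 556, 661 and 841 in vinblastine hearts, against 4732, 5187 and 6258 in saline hearts (log2 -2.98 ± 0.49 SE, adjusted p = 1.1e-05). Tubb4b (1371390_at), a widely expressed beta tubulin, had 430.0, 490.0 and 1228 in vinblastine hearts, against 2802, 3256 and 3994 in saline hearts (log2 -2.52 ± 0.42 SE, adjusted p = 1.37e-05). For both genes every vinblastine array lay below every saline array, and for Tubb4b the highest vinblastine value was replicate 1, with the other 5 at 430.0 to 524. Tuba8, an alpha isotype of striated muscle, had 258, 442 and 642 in vinblastine hearts, against 1761, 2294 and 2836 in saline hearts (log2 -2.35 ± 0.41 SE, adjusted p = 3.44e-05). The groups did not overlap here either, and replicate 1 was the lowest array.

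The remaining beta tubulins divided. Tubb2a had 187, 244 and 714 in vinblastine hearts, against 670.1, 817 and 1084 in saline hearts (log2 -1.54 ± 0.34 SE, adjusted p = 0.000632), with replicate 1 as the only vinblastine array inside the saline range and the other 5 at 187 to 256. Tubb5, the housekeeping beta isotype, had 354, 414 and 764 in vinblastine hearts, against 945, 1227 and 1356 in saline hearts (log2 -1.41 ± 0.27 SE, adjusted p = 8.02e-05), again with replicate 1 as the highest vinblastine array and no overlap. Probe sets with several symbols or none were not tied to genes, so more isotypes may be on the array than are counted here. Of 16 alpha and beta tubulins listed 10 had a probe set tied to a single symbol, and 9 passed the filter on low values. Of these 9, the 5 above fell and 0 rose, with a median log2 change of -1.41, and the same 5 calls stood without replicate 1. The other 4 overlapped between the groups. Tubb4a, the beta isotype of myelinating cells, changed by -0.14 (adjusted p = 0.197), and the dim Tubb2b and Tubb1, the isotype of platelets, by -0.10 (adjusted p = 0.298) and 0.01 (adjusted p = 0.98). Tubb6 stood at 140.3 to 155 on 5 vinblastine arrays and at 431 on replicate 1, against 145 to 235 in saline hearts, and its log2 change was -0.19 (adjusted p = 0.472), or -0.43 (adjusted p = 0.0721) without replicate 1. It passed the test in 3 other fits, at -0.47 (adjusted p = 0.0142) with arrays weighted by their fit, at -0.43 (adjusted p = 0.00857) without the 10 arrays set apart in the study, and at an adjusted p of 0.0098 without replicate 1 and with the compared groups alone.

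**Figure D2:**
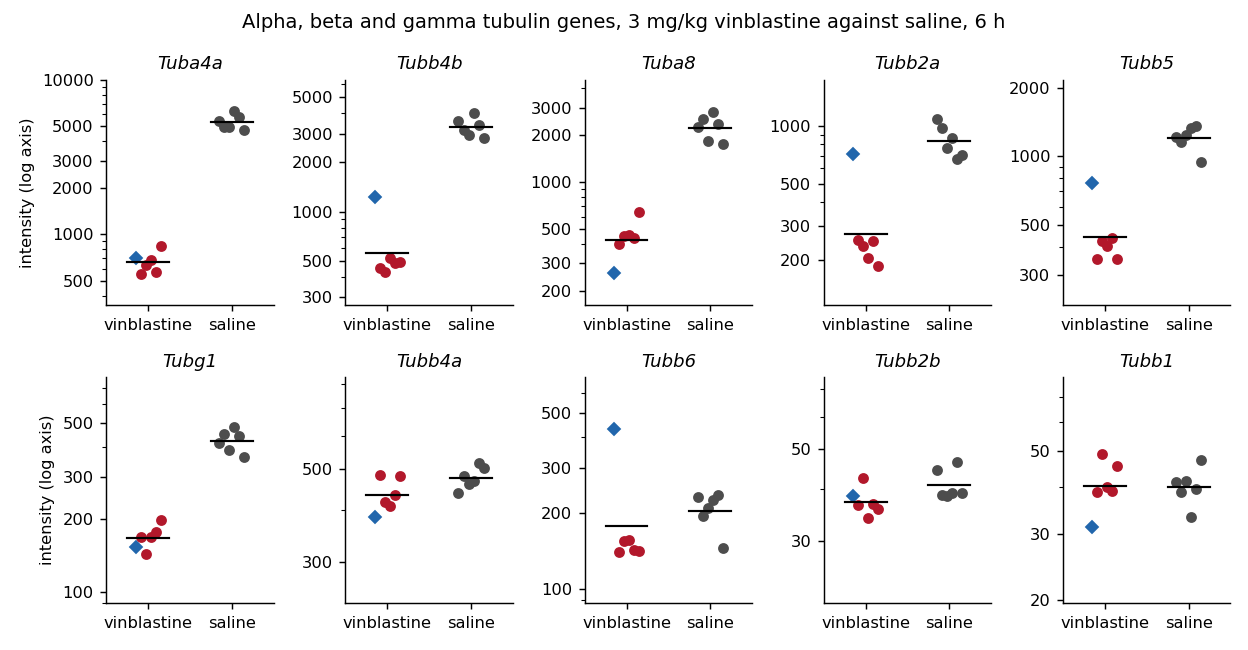
Intensity on a log axis of 9 alpha and beta tubulin genes and the gamma tubulin gene Tubg1 in 6 vinblastine and 6 saline hearts at 6 h. Points are animals, blue diamonds are vinblastine replicate 1, and bars are means taken on the log2 scale: the top row and Tubg1 lie lower with vinblastine, while Tubb4a, Tubb6, Tubb2b and Tubb1 overlap.

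Gamma tubulin, which nucleates microtubules, fell with the isotypes. Tubg1 had 144, 168 and 199 in vinblastine hearts, against 364, 428 and 484 in saline hearts (log2 -1.26 ± 0.21 SE, adjusted p = 1.67e-05), and the groups did not overlap. Of the 9 gamma tubulin and ring complex genes tested 2 fell and 1 rose, or 2 and 0 without replicate 1. Tubgcp6, a ring complex subunit, changed by -0.28 (adjusted p = 0.00138), a call that was lost when the 12 arrays were fitted alone (adjusted p = 0.0603). Ttc5, the tubulin autoregulation factor, changed by -0.25 (adjusted p = 0.00891), and its groups did not overlap, at 127 to 176 in vinblastine and 178 to 218 in saline hearts. Without replicate 1 the change of Ttc5 was -0.20 (adjusted p = 0.0721), past the threshold no more.

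Genes of tubulin folding rose by small amounts where they were called. Of 22 CCT chaperonin, prefoldin and tubulin cofactor genes tested, 11 rose and 1 fell (Ttc5), with a median log2 change of 0.23. Cct2 and Cct3, subunits of the chaperonin that folds tubulin and actin, rose by 0.40 (adjusted p = 0.00153) and 0.33 (adjusted p = 0.00153). Replicate 1 was highest for both, and Cct2 stood at 2637 there and at 1268 to 1521 on the other 5 vinblastine arrays, against 1031 to 1370 in saline hearts. Without it the changes of Cct2 and Cct3 were 0.25 (adjusted p = 0.036) and 0.22 (adjusted p = 0.0332). Neither passed without the arrays that carry the suffix (adjusted p = 0.0994 and 0.0624). Without replicate 1, 3 of the 22 genes rose and 0 fell, and with the 12 arrays fitted alone 0 passed.

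Among 35 microtubule-associated proteins and motors 5 rose and 4 fell, a share of the list close to that of all genes, and 2 rose and 1 fell without replicate 1. Map1b, which stabilises microtubules in growing neurites, had 984, 1293 and 1585 in vinblastine hearts, against 572, 639 and 761 in saline hearts (log2 0.94 ± 0.20 SE, adjusted p = 0.00036), and every vinblastine array lay above every saline array. Clip1, a plus-end tracking protein, rose by 0.47 (adjusted p = 0.00177), or by 0.28 (adjusted p = 0.00456) as the mean of its probe sets. Map7d1, which recruits kinesin-1 to microtubules, fell by 0.57 on the log2 scale (adjusted p = 0.000186), and the mean of its probe sets changed by -0.245 (adjusted p = 0.00458). Tppp3, a microtubule-bundling protein, stood at 94.9, 169.7 and 204 in vinblastine and 360.5, 418 and 466 in saline hearts with no overlap (log2 -1.31 ± 0.41 SE, adjusted p = 0.0136). Without replicate 1, and with a variance shared by all groups, its adjusted p was 0.0563. With the 12 arrays fitted alone, replicate 1 among them, it was 3.67e-05.

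Rnd1 and Rhou, which encode small GTPases, and the actin regulator Enah were among the 20 largest rises. Rnd1 (1381533_at), an atypical small GTPase that loosens stress fibres, had 175, 264 and 1013 in vinblastine hearts, against 24.1, 29.5 and 35.2 in saline hearts (log2 2.83 ± 0.44 SE, adjusted p = 5.44e-06). Rhou, a Cdc42-like GTPase, had 175, 259 and 383 in vinblastine hearts, against 23.2, 28.2 and 34.8 in saline hearts (log2 2.63 ± 0.43 SE, adjusted p = 1.1e-05). Neither gene had a vinblastine array within the saline range. The highest Rnd1 value was replicate 1, with the other 5 at 175 to 298.

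Of 30 genes of actin and of SRF and YAP targets 16 rose and 0 fell, with a median log2 change of 0.30, and 8 rose without replicate 1. Enah, which lengthens actin filaments at adhesions, had 1851, 2604 and 3260 in vinblastine hearts, against 460.3, 574 and 718 in saline hearts (log2 2.12 ± 0.35 SE, adjusted p = 1.29e-05). Flnc, the muscle filamin that links actin to the Z-disc, had 3159, 4702 and 6318 in vinblastine hearts, against 1170, 1384 and 1717 in saline hearts (log2 1.74 ± 0.29 SE, adjusted p = 1.49e-05). The groups were separate for both. Enah has 2 more probe sets, at 1.22 and, for the dim one, -0.07, and the mean of all 3 rose by 1.09 (adjusted p = 4.53e-05). Ccn2, a secreted matricellular target of YAP, had 2107, 2486 and 4594 in vinblastine hearts, against 418, 611 and 709.5 in saline hearts (log2 2.16 ± 0.40 SE, adjusted p = 7.09e-05). Zyx, a tension-sensing focal adhesion protein, rose by 0.63 (adjusted p = 0.00157). Ccn1, a relative of Ccn2, spread widely within the vinblastine group, from 49.4 to 1375 against 34.8 to 77.1 in saline hearts, and its change of 2.07 (adjusted p = 0.0252) became 1.602 (adjusted p = 0.144) without replicate 1.

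Of 17 cardiac stress genes 14 rose and 1 fell, with a median log2 change of 1.13, and 10 rose and 0 fell without replicate 1. Rcan1, an inhibitor of calcineurin that calcineurin itself induces, had 4913, 6812 and 9631 in vinblastine hearts, against 1428, 1669 and 2401 in saline hearts (log2 1.90 ± 0.29 SE, adjusted p = 4.43e-06). Ankrd23, a titin-bound ankyrin repeat protein, had 538, 688 and 2027 in vinblastine hearts, against 70.8, 177 and 238 in saline hearts (log2 2.22 ± 0.44 SE, adjusted p = 0.000144). Csrp3, the muscle LIM protein of the Z-disc, had 14460, 16390 and 27290 in vinblastine hearts, against 8270, 9035 and 11340 in saline hearts (log2 0.92 ± 0.14 SE, adjusted p = 4.06e-06). All 3 were above the saline range on every vinblastine array.

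Myh7, the slow myosin heavy chain re-expressed in overloaded rodent ventricle, read 20940 on replicate 1 and 3538 to 5410 on the other 5 vinblastine arrays, against 1108 to 4170 in saline hearts. Its log2 change was 1.13 (adjusted p = 0.0057), and 0.74 (adjusted p = 0.089) without that array. Lmod2, which elongates the thin filament, showed the reverse, with replicate 1 at 1942 and the other 5 at 6153 to 6603 against 2517 to 3341 in saline hearts. Its change was 0.88 (adjusted p = 0.00211), and 1.16 (adjusted p = 6.38e-05) without replicate 1. Lmcd1, a LIM protein that promotes calcineurin signalling in mouse heart, had 1671, 2833 and 7724 in vinblastine hearts, against 638, 698 and 940.0 in saline hearts (log2 2.03 ± 0.30 SE, adjusted p = 2.52e-06). Ky, a muscle protein whose loss causes kyphoscoliosis and myopathy in mouse, was below the saline range on every vinblastine array, with 104, 166 and 185 in vinblastine hearts, against 323, 362 and 394 in saline hearts (log2 -1.13 ± 0.17 SE, adjusted p = 4.43e-06). Of 21 sarcomere genes 9 rose and 0 fell, with a median log2 change of 0.07.

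Genes of ion channels, gap junctions and calcium handling fell where they were called. Of 33 tested 0 rose and 10 fell, with a median log2 change of -0.22, and 5 fell without replicate 1. Kcnh2, which carries the rapid delayed rectifier potassium current, had 85.6, 166 and 210.5 in vinblastine hearts, against 211, 232 and 309 in saline hearts (log2 -0.59 ± 0.13 SE, adjusted p = 0.000883), or -0.37 (adjusted p = 0.0669) without the arrays that carry the suffix. Kcnj11, the pore of the ATP-sensitive potassium channel, changed by -0.59 (adjusted p = 0.00956), and by -0.36 (adjusted p = 0.139) without replicate 1. The cardiac transcription factors Nkx2-5 and Mef2c fell by 0.44 (adjusted p = 0.00241) and 0.70 (adjusted p = 0.000264) on the log2 scale, with separate groups for both. In cyclic nucleotide signalling Gucy1b1, a subunit of the nitric oxide receptor, changed by -0.51 (adjusted p = 0.00111) and the phosphodiesterase Pde4d by -0.60 (adjusted p = 0.000225), or by -0.35 (adjusted p = 0.00166) as the mean of its probe sets. Rgs2, which shortens signalling of G proteins of the Gq class, read 1065 on replicate 1 and 76.6 to 118 on the other 5, against 196 to 396 in saline hearts, so that its change of -0.91 (adjusted p = 0.0408) was -1.44 (adjusted p = 0.00034) without replicate 1. The call of Rgs2 was lost in 10 of the 12 fits that each left out 1 array, with adjusted p values up to 0.113, and with the 12 arrays fitted alone (adjusted p = 0.262).

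Summed neutrophil markers were higher in every vinblastine heart than in any saline heart. S100a9 (1387125_at) and S100a8, which form the calprotectin of neutrophils and monocytes, had 685, 951 and 1194 in vinblastine hearts, against 35.4, 47.2 and 91.3 in saline hearts for S100a9 (log2 3.68 ± 0.53 SE, adjusted p = 2.46e-06), and 141, 227 and 319 in vinblastine hearts, against 25.9, 28.9 and 32.1 in saline hearts for S100a8 (log2 2.38 ± 0.32 SE, adjusted p = 7.57e-07). Neither gene overlapped between the groups, and replicate 1 was not the highest array for either. Il1r2, the decoy receptor of interleukin 1, rose by 1.42 (adjusted p = 1.29e-05). Of 8 neutrophil markers tested 5 rose and 0 fell, with or without replicate 1. The summed intensity of the 13 markers with a probe set tied to a single symbol was 1843, 2563 and 9000 in vinblastine hearts, with replicate 1 at the top, and 709, 769 and 971 in saline hearts. This sum includes S100a9, S100a8 and the acute phase gene Lcn2, and most of it on replicate 1 was Lcn2. The 5 untested markers, among them the neutrophil proteases and chemokine receptors Mmp8, Mmp9, Cxcr1 and Cxcr2, were under the filter on low values. In RNA of whole hearts, more or fewer cells of a type and more or less RNA per cell cannot be told apart.

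Of 17 ligands and receptors of the TNF superfamily 7 rose and 3 fell, or 6 and 1 without replicate 1, and of 21 cytokines and their receptors 6 rose and 1 fell, or 6 and 2. Tnfrsf12a (1371785_at), the receptor of the cytokine TWEAK, had 1067, 1408 and 1725 in vinblastine hearts, against 150.4, 157 and 204 in saline hearts (log2 2.97 ± 0.47 SE, adjusted p = 5.44e-06). Tnfsf10, the death ligand TRAIL, was lower with 33.8, 53.7 and 78.1 in vinblastine hearts, against 79.3, 105 and 149.7 in saline hearts (log2 -0.77 ± 0.23 SE, adjusted p = 0.00949), or -0.66 (adjusted p = 0.0516) without replicate 1 and -0.65 (adjusted p = 0.0814) without the arrays that carry the suffix. Ccl2, the chief attractant of monocytes, had 127, 248 and 975 in vinblastine hearts, against 46.2, 57.5 and 86.5 in saline hearts (log2 2.00 ± 0.35 SE, adjusted p = 3.67e-05). Of 21 chemokines 11 rose and 1 fell, and 6 and 0 without replicate 1. Of 20 NF-kappaB genes 11 rose and 0 fell, and 8 without replicate 1. They included the inhibitor Nfkbia, at 0.91 (adjusted p = 0.00488), and Irak3, a brake on Toll-like receptor signalling, at 0.96 (adjusted p = 7.06e-05). The interleukin 1 receptor Il1r1 rose by 0.93 (adjusted p = 6.88e-06) and the cytokine Il1b by 0.79 (adjusted p = 0.000111), each above the saline range on every vinblastine array. As the mean of its probe sets Il1r1 rose by 0.45 (adjusted p = 2.63e-05).

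Of 32 interferon-stimulated genes 17 rose and 0 fell, with a median log2 change of 0.35, and 10 rose without replicate 1. Irf1, a transcription factor induced by interferons and by NF-kappaB, had 288, 431 and 566 in vinblastine hearts, against 169, 236 and 270.1 in saline hearts (log2 0.83 ± 0.12 SE, adjusted p = 2.46e-06), and replicate 1 was its lowest vinblastine array. Of 10 lymphocyte markers 0 rose and 1 fell. Their summed intensity was 728, 775 and 842 in vinblastine hearts and 756, 797 and 828 in saline hearts.

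Of 20 macrophage markers 3 rose and 5 fell, where 15.6% of all genes tested rose and 7.67% fell. The summed intensity of the 24 with a probe set tied to a single symbol overlapped, with 4066, 4917 and 7137 in vinblastine hearts and 4124, 5223 and 6387 in saline hearts. Cd14, the endotoxin co-receptor, was the largest rise with 229.5, 390.5 and 472 in vinblastine hearts, against 83.3, 111 and 136 in saline hearts (log2 1.61 ± 0.24 SE, adjusted p = 2.46e-06). Stab1, a scavenger receptor of resident macrophages and some endothelium, had 67.3, 81.2 and 94.1 in vinblastine hearts, against 135, 201 and 276 in saline hearts (log2 -1.10 ± 0.21 SE, adjusted p = 9.98e-05). Folr2, a folate receptor of resident macrophages, had 66.3, 76.1 and 92.9 in vinblastine hearts, against 111, 132 and 136 in saline hearts (log2 -0.61 ± 0.13 SE, adjusted p = 0.000585). Both were separate between the groups. C1qa, of complement C1q, read 397 on replicate 1 and 149 to 206 on the other 5 arrays, against 266 to 449.8 in saline hearts, with a change of -0.83 (adjusted p = 0.00997) that was -1.03 (adjusted p = 0.00302) without replicate 1.

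Markers of other cells were summed as well. Summed adipocyte and Schwann cell markers were 6226, 7072 and 8414 in vinblastine hearts and 3720, 5012 and 5920 in saline hearts, and summed mesothelial markers 842, 939 and 1201 in vinblastine hearts and 514, 605 and 750 in saline hearts, with no overlap in either sum. Most of the first sum was 1 gene, the fatty acid carrier Fabp4, which is also made by endothelium, with 5553, 6361 and 7532 in vinblastine hearts and 2955, 4202 and 5175 in saline hearts (log2 0.62 ± 0.15 SE, adjusted p = 0.00117). Of the 8 adipocyte and Schwann cell genes tested Fabp4 rose and Cfd fell, and the median log2 change of the 8 was -0.08. Of the 9 mesothelial markers summed only 4 passed the filter on low values. Of these 4 genes 2 rose, and 1 without replicate 1, with a largest log2 change of 0.98. Tcf21 is in both the mesothelial and the fibroblast list, and the largest change of the fibroblast list was also 0.98. Fibroblast markers summed to 39470, 42910 and 49530 in vinblastine hearts and 35270, 47130 and 54770 in saline hearts, and of 17 tested 1 rose and 4 fell, or 1 and 1 without replicate 1. The part of these sums in the other results was not tested.

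Of 10 genes of MHC class II presentation 0 rose and 4 fell, with a median log2 change of -0.47, and 3 fell without replicate 1. RT1-Db1, RT1-Ba and RT1-Da, chains of the rat class II molecules, fell by 0.75, 0.75 and 0.84 on the log2 scale (adjusted p = 0.00487, 0.00722 and 0.00754). Without the arrays that carry the suffix RT1-Ba and RT1-Da did not pass (adjusted p = 0.0883 and 0.0633), and as means of their probe sets RT1-Db1 and RT1-Ba changed by -0.42 (adjusted p = 0.00526) and -0.36 (adjusted p = 0.00224). RT1-Db1 had 135, 150.0 and 154 in vinblastine hearts, against 175, 285 and 309.8 in saline hearts. Chains of this family are near-identical in sequence, and probe sets may share signal between them.

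Of 18 genes of endothelial activation and coagulation 14 rose and 0 fell, with a median log2 change of 0.68, and 12 rose without replicate 1. Icam1, which leukocytes bind on activated endothelium, had 339, 429.5 and 564 in vinblastine hearts, against 109, 129.9 and 157 in saline hearts (log2 1.598 ± 0.24 SE, adjusted p = 2.46e-06). Adamts1, a secreted protease that cleaves proteoglycans, had 903, 1052 and 1652 in vinblastine hearts, against 179, 209 and 285 in saline hearts (log2 2.30 ± 0.46 SE, adjusted p = 0.000154). Fgl2, a prothrombinase, had 839, 931 and 4723 in vinblastine hearts, against 199, 317 and 486 in saline hearts (log2 1.92 ± 0.33 SE, adjusted p = 2.08e-05). Every vinblastine array was above the saline range for these 3 genes. Angpt2, which destabilises vessels, rose by 1.01 (adjusted p = 0.000225), and Adm, the vasodilator and barrier-sealing peptide adrenomedullin, by 1.07 (adjusted p = 0.000147).

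Among 30 endothelial identity genes 4 rose and 6 fell, where 15.6% of all genes tested rose and 7.67% fell. The summed intensity of the 30 overlapped at 24910, 29020 and 33590 in vinblastine hearts and 23290, 27090 and 29460 in saline hearts. The junction proteins Esam and Cldn5 and the sphingosine 1-phosphate receptor S1pr1 rose, by 0.72 (adjusted p = 5.36e-05), 0.64 (adjusted p = 0.00243) and 0.90 (adjusted p = 0.00136). Cldn5 did not pass without the arrays that carry the suffix (adjusted p = 0.0608). S1pr1 rose by 0.465 (adjusted p = 0.00117) as the mean of its probe sets. Sox18, a transcription factor of vessel growth, had 450.0, 550.5 and 660.4 in vinblastine hearts, against 830.4, 859.7 and 1031 in saline hearts (log2 -0.70 ± 0.20 SE, adjusted p = 0.00766). Aplnr, the apelin receptor, read 52.5 on replicate 1 and 206 to 364 on the other 5 arrays, against 487 to 640.4 in saline hearts, so its change of -1.32 (adjusted p = 0.00167) was -0.96 (adjusted p = 0.0286) without replicate 1 and -0.86 (adjusted p = 0.00124) as the mean of its probe sets. Esm1, a secreted product of tip cells, changed by -0.60 (adjusted p = 0.00113).

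Of 15 Notch receptors, ligands and targets 0 rose and 5 fell, with a median log2 change of -0.03, and 4 fell without replicate 1. Hey1 and Hey2, repressors that Notch induces in endothelium and myocardium, had 67.9, 169 and 210.2 in vinblastine hearts, against 366, 409.9 and 417 in saline hearts for Hey1 (log2 -1.300 ± 0.25 SE, adjusted p = 0.000127), and 105, 149 and 181 in vinblastine hearts, against 211, 236 and 295 in saline hearts for Hey2 (log2 -0.72 ± 0.17 SE, adjusted p = 0.00133). Neither overlapped between the groups, and replicate 1 was the lowest vinblastine array for Hey1 and the highest for Hey2.

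**Figure D3:**
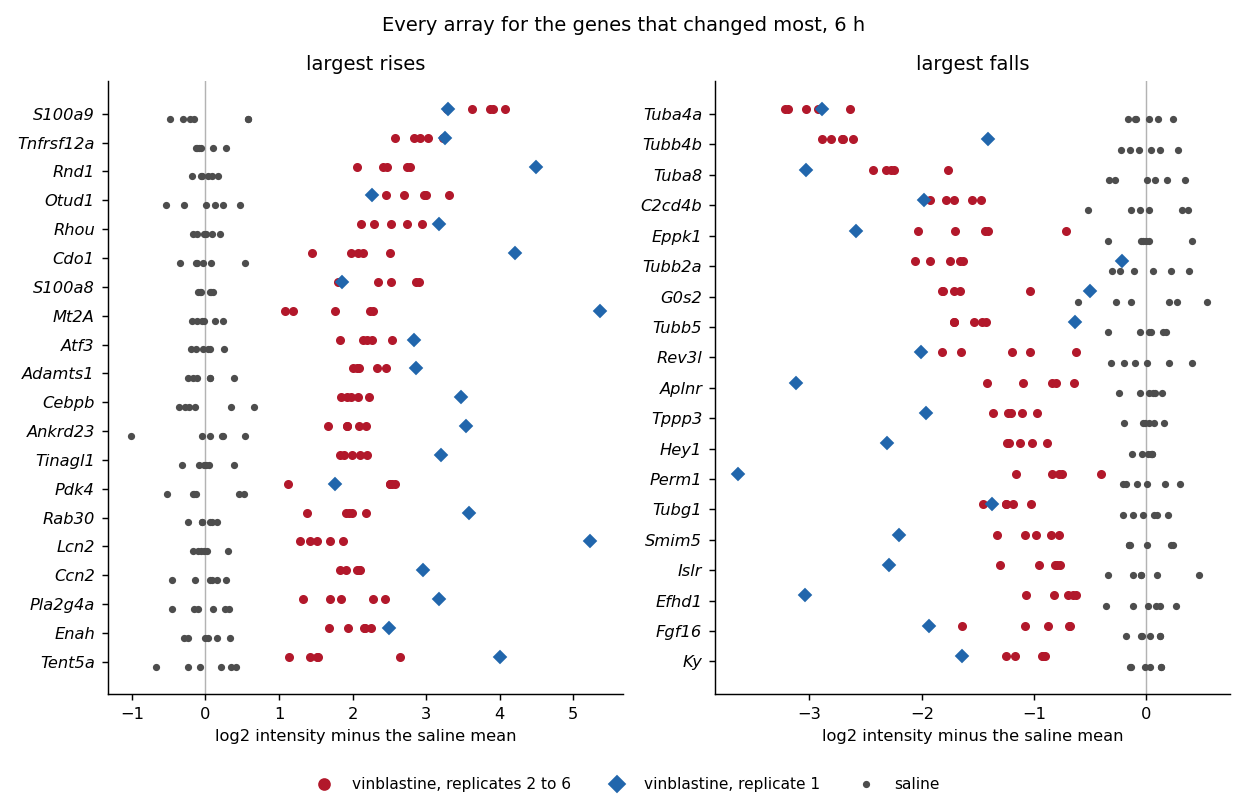
Every array for the 20 largest rises and for the 19 named among the 20 largest falls at 6 h, as log2(intensity + 16) minus the saline mean of the gene. Red points are vinblastine replicates 2 to 6, blue diamonds vinblastine replicate 1 and grey points saline: replicate 1 lies beyond the other 5 vinblastine arrays for genes such as Mt2A, Lcn2 and Perm1 and among them or nearer to saline for genes such as S100a9, Pdk4 and Tubb2a.

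Immediate early genes rose in 13 of 24 cases and fell in 0, with a median log2 change of 0.74, and 12 rose without replicate 1. Atf3, a stress-induced member of the ATF family, had 125, 170.2 and 266 in vinblastine hearts, against 18.6, 23.7 and 31.3 in saline hearts (log2 2.30 ± 0.47 SE, adjusted p = 0.000202). Myc, a driver of ribosome production, read 1084 on replicate 1 and 129 to 225 on the other 5 arrays against 62.0 to 80.0 in saline hearts. The change of Myc was 1.501 (adjusted p = 0.00153), and 1.07 (adjusted p = 0.0285) without that array. Cebpb and Cebpd, transcription factors of the acute phase and of glucocorticoid action, rose by 2.26 (adjusted p = 6.88e-06) and 1.87 (adjusted p = 0.000257), with separate groups for both.

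Genes that ATF4 induces when amino acids are short, or when the initiation factor eIF2 is phosphorylated, rose in 18 of 27 cases and fell in 0, with a median log2 change of 0.39, and 14 rose without replicate 1. Asns, asparagine synthetase, had 81.5, 93.2 and 142 in vinblastine hearts, against 26.4, 34.4 and 40.8 in saline hearts (log2 1.22 ± 0.17 SE, adjusted p = 2.46e-06). Ppp1r15a, which directs the phosphatase that reverses eIF2 phosphorylation, had 868, 966 and 1024 in vinblastine hearts, against 353, 361 and 422 in saline hearts (log2 1.32 ± 0.25 SE, adjusted p = 7.05e-05), with no overlap between the groups. Slc3a2, the shared chain of several amino acid transporters, rose by 0.94 (adjusted p = 7.49e-05). Of 19 aminoacyl-tRNA synthetases 15 rose and 0 fell, with a median log2 change of 0.42, and 14 rose without replicate 1. Eprs1, Wars1 and Tars1 rose by 0.55 (adjusted p = 2.46e-06), 0.55 (adjusted p = 5.8e-06) and 0.69 (adjusted p = 0.000138), and all vinblastine values of the 3 genes were above all saline values. Of 23 genes of the unfolded protein response 5 rose, and 0 without replicate 1. The share called with all arrays, 21.7%, was near the 23.3% of all genes.

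Ribosome biogenesis genes rose in 34 of 41 cases, translation factors in 23 of 31 and proteasome subunits in 26 of 34, with 0 falling in each list and median log2 changes of 0.38, 0.25 and 0.26. Without replicate 1 the numbers were 15, 10 and 14, with 1 ribosome biogenesis gene falling, where the share of all genes called higher was 8.32%, against 15.6% with all arrays, and with the 12 arrays fitted alone 3 rose in each list. Ddx21, an RNA helicase of the nucleolus, read 1368 on replicate 1 and 261 to 353 on the other 5, against 146 to 261 in saline hearts (log2 0.94 ± 0.21 SE, adjusted p = 0.000879). Its change without replicate 1 was 0.59 (adjusted p = 0.0214). With the 12 arrays fitted alone its adjusted p was 0.0919, and that of Psma5 was 0.117. Gar1, of the box H/ACA RNA particles that modify ribosomal RNA, rose by 0.83 (adjusted p = 0.00015), and the proteasome subunits Psmd8 and Psma5 by 0.92 (adjusted p = 1.07e-05) and 0.40 (adjusted p = 0.000754), the last of them by 0.26 (adjusted p = 0.0182) without replicate 1. Ribosomal protein genes rose in 7 of 21 cases and in 0 without replicate 1, as for Rpl3, whose change of 0.45 (adjusted p = 0.0123) was 0.20 (adjusted p = 0.243) without it. Otud1, a deubiquitinase, had 2284, 3396 and 4731 in vinblastine hearts, against 312, 483 and 644 in saline hearts (log2 2.78 ± 0.57 SE, adjusted p = 0.000219).

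**Figure D4:**
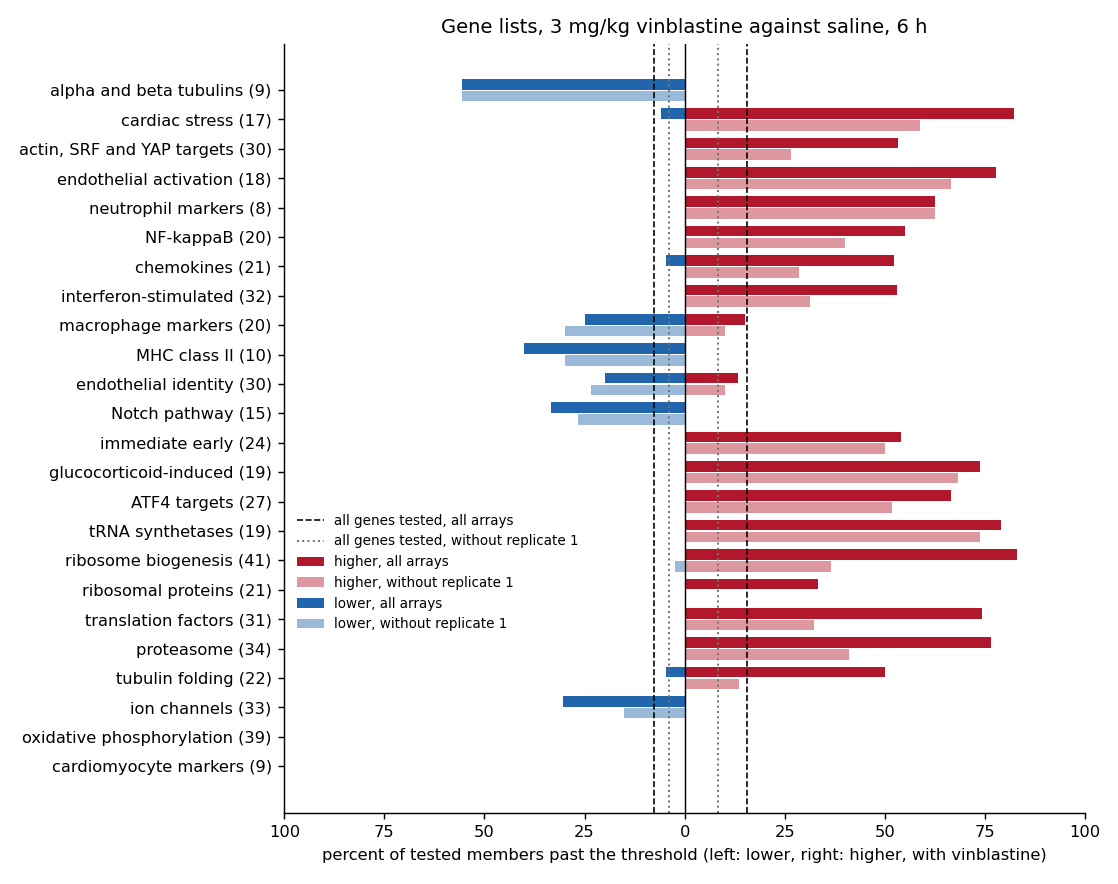
Percent of the tested members of 24 gene lists that passed the threshold, to the right where higher and to the left where lower in vinblastine than in saline hearts at 6 h, with the number tested in brackets. The 24 were picked by hand from a larger number of lists. Those not drawn include p53 targets (26.7% called), microtubule-associated proteins and motors (25.7%) and the TNF superfamily (58.8%), where 23.3% of all genes were called. Dark bars use all arrays and pale bars leave out vinblastine replicate 1, dashed lines mark the shares of all 11319 genes with all arrays, 15.6% higher and 7.67% lower, and dotted lines those without replicate 1, 8.32% and 3.88%: most bars and both shares of all genes shrink without that array, the ribosomal protein bar to 0, and the tubulin and neutrophil bars keep their length.

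Heat shock genes rose in 10 of 29 cases and fell in 1 (8 and 0 without replicate 1), led by Dnajb5, a small co-chaperone of muscle that binds HDAC4, with 1188, 1626 and 2231 in vinblastine hearts, against 429, 554 and 834 in saline hearts (log2 1.45 ± 0.23 SE, adjusted p = 6.99e-06). Hspb1, a small heat shock protein that protects actin, had 5422, 6489 and 15370 in vinblastine hearts, against 2726, 3088 and 3662 in saline hearts (log2 1.23 ± 0.24 SE, adjusted p = 0.000126). In survival and growth arrest, Gadd45a, induced by stress and DNA damage, rose by 1.32 (adjusted p = 1.43e-05) and Bcl2l1, which encodes the antiapoptotic Bcl-xL, by 1.302 (adjusted p = 1.29e-05), both with separate groups, and Bcl2l1 by 0.75 (adjusted p = 3.27e-05) as the mean of its probe sets. Cdkn1a, the p53-induced inhibitor p21, changed by 0.80 (adjusted p = 0.0204), and by 0.52 (adjusted p = 0.189) without replicate 1. Of 15 p53 targets 4 rose and 0 fell, and the share called, 26.7%, was near the 23.3% of all genes. Of 19 mitosis and 22 DNA replication genes 0 rose and 1 fell in each list, and 0 fell in either without replicate 1.

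Genes that glucocorticoids induce rose in 14 of 19 cases and fell in 0, with a median log2 change of 0.80, and 13 rose without replicate 1. Pdk4, the kinase that shuts off pyruvate dehydrogenase, had 2743, 7234 and 7586 in vinblastine hearts, against 868, 1135 and 1814 in saline hearts (log2 2.17 ± 0.40 SE, adjusted p = 7.05e-05). Mt2A, a metallothionein that buffers zinc and copper, read 14850 on replicate 1 and 751 to 1746 on the other 5 vinblastine arrays, against 302 to 414 in saline hearts. The groups did not overlap, and the log2 change was 2.32 (adjusted p = 0.000164), or 1.71 (adjusted p = 0.00373) without that array. Angptl4, an inhibitor of lipoprotein lipase induced by fasting, read 2551 on replicate 1, 37.3 to 204 on the others and 29.1 to 54.3 in saline hearts (log2 1.81 ± 0.44 SE, adjusted p = 0.00178). Its change was 1.07 (adjusted p = 0.0434) without replicate 1, and its adjusted p was 0.121 with the 12 arrays fitted alone.

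No call was made in either direction among 39 subunits of the respiratory chain and ATP synthase, with log2 changes between -0.07 and 0.14, while 3 of 33 fatty acid genes rose and 0 fell. Ppargc1a and Perm1, coactivators that raise mitochondrial genes, had 209, 580.0 and 725 in vinblastine hearts, against 821, 1003 and 1038 in saline hearts for Ppargc1a (log2 -0.90 ± 0.19 SE, adjusted p = 0.000396), and 191, 1449 and 1928 in vinblastine hearts, against 2203, 2491 and 3142 in saline hearts for Perm1 (log2 -1.26 ± 0.31 SE, adjusted p = 0.00155). Replicate 1 was the lowest array for both, and the change of Perm1 without it was -0.79 (adjusted p = 0.0366). With the 12 arrays fitted alone the adjusted p of Perm1 was 0.0809. In lipid stores G0s2, an inhibitor of triglyceride lipase, had 90.7, 101.2 and 250.5 in vinblastine hearts, against 232, 372 and 532 in saline hearts (log2 -1.42 ± 0.39 SE, adjusted p = 0.00513). Pnpla2, that lipase itself, rose by 0.74 (adjusted p = 6.8e-05). Cdo1, which starts the breakdown of cysteine, had 325, 524 and 2305 in vinblastine hearts, against 82.0, 103 and 166 in saline hearts (log2 2.40 ± 0.41 SE, adjusted p = 2.9e-05). Txnip, an inhibitor of thioredoxin and of glucose uptake, rose by 1.41 (adjusted p = 3.16e-05), and Insig1, which restrains sterol synthesis, by 1.01 (adjusted p = 4.6e-06).

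Hbegf, a ligand of the EGF receptor, rose by 1.32 (adjusted p = 0.000129) and the neurotrophin Bdnf by 1.19 (adjusted p = 0.000225), or 0.69 (adjusted p = 0.000324) as the mean of its probe sets. Fgf16, a growth factor of cardiomyocytes, had 50.3, 113 and 142 in vinblastine hearts, against 207, 237 and 260.2 in saline hearts (log2 -1.15 ± 0.22 SE, adjusted p = 0.000102). Tinagl1, a matrix glycoprotein, had 962, 1118 and 2505 in vinblastine hearts, against 203, 257 and 341 in saline hearts (log2 2.20 ± 0.32 SE, adjusted p = 2.46e-06). Pla2g4a, the phospholipase that releases arachidonic acid, had 367, 628 and 1361 in vinblastine hearts, against 95.5, 137 and 174 in saline hearts (log2 2.13 ± 0.35 SE, adjusted p = 1.1e-05). Rab30, a small GTPase of the Golgi, rose by 2.17 (adjusted p = 2.01e-05). For these 3 genes the groups did not overlap.

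Large falls outside the tubulins included that of C2cd4b, induced by cytokines in endothelium, with 32.6, 41.4 and 53.3 in vinblastine hearts, against 118, 174 and 233 in saline hearts (log2 -1.74 ± 0.32 SE, adjusted p = 6.95e-05). Eppk1, a plakin that binds intermediate filaments, had 61.3, 141 and 267 in vinblastine hearts, against 350.3, 443 and 599 in saline hearts (log2 -1.65 ± 0.31 SE, adjusted p = 8.3e-05). Rev3l, the catalytic subunit of DNA polymerase zeta, had 128, 202 and 359 in vinblastine hearts, against 448, 544 and 748 in saline hearts (log2 -1.39 ± 0.27 SE, adjusted p = 0.000135). None of the 3 overlapped between the groups. Smim5, Islr and Efhd1 fell by 1.203, 1.16 and 1.15 on the log2 scale (adjusted p = 0.00049, 3.99e-05 and 0.00133), with replicate 1 as the lowest array of each. Efhd1 read 42.5 there and 212 to 295 on the other 5, and its change was -0.78 (adjusted p = 0.0286) without replicate 1 and -0.72 (adjusted p = 0.066) without the arrays that carry the suffix.

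Some rises rested on replicate 1 to a larger degree. Lcn2, a siderophore-binding acute phase protein, read 7236 there and 454 to 689 on the other 5 vinblastine arrays, against 156 to 222 in saline hearts, and its change of 2.17 (adjusted p = 9.16e-05) was 1.55 (adjusted p = 0.00189) without that array. Timp1, an inhibitor of matrix metalloproteinases, read 4065 there and 258 to 593 on the others, against 121 to 234 in saline hearts, with changes of 1.72 (adjusted p = 0.00111) and, without it, 1.14 (adjusted p = 0.0248). The adjusted p of Timp1 was 0.0564 with the 12 arrays fitted alone and 0.0539 without the arrays that carry the suffix. Hamp, which encodes the iron hormone hepcidin, read 5332 there, 232 to 343 on the others and 60.8 to 532 in saline hearts, and its change of 1.97 (adjusted p = 0.00458) was 1.27 (adjusted p = 0.0807) without replicate 1. Tent5a, a poly(A) polymerase, read 2334 there and 308 to 903 on the others against 76.6 to 179.8 in saline hearts (log2 2.04 ± 0.41 SE, adjusted p = 0.000191), but its 2 other probe sets stood at -0.09 ± 0.12 SE and 0.23 ± 0.10 SE, and the mean of the 3 rose by 0.73 (adjusted p = 0.00144).

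Proximal promoters are shown for 4 genes that rose in different groups above: Ppp1r15a among ATF4 targets, Rcan1 among cardiac stress genes, Nfkbia of NF-kappaB and the metallothionein Mt2A. These 4 genes were picked by hand, without a rule, and do not stand for their groups. The sequences come from RefSeq (GRCr8) and run from 250 bases before the gene's start to 50 after it, at chr1:105139547-105139846 for Ppp1r15a, chr11:45118187-45118486 for Rcan1, chr6:78597023-78597322 for Nfkbia and chr19:10838659-10838958 for Mt2A, all on the minus strand. Capitals mark every match of the 5 motifs searched on both strands: the cyclic AMP response element TGACGTCA in Ppp1r15a and Rcan1, the AP-1 motif TGANTCA in Ppp1r15a, Rcan1 and Mt2A, the NF-kappaB site in Nfkbia, the metal response element (TGCACNC or TGCGCNC) in Mt2A and Nfkbia, and the TATA box TATAAA in all 4.
Ppp1r15a: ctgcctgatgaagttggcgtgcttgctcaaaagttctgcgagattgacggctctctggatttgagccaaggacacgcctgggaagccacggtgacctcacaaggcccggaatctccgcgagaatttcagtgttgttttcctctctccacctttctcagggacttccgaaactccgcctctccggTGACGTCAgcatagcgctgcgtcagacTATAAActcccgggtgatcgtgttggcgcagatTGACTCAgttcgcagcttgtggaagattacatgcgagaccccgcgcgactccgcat
Rcan1: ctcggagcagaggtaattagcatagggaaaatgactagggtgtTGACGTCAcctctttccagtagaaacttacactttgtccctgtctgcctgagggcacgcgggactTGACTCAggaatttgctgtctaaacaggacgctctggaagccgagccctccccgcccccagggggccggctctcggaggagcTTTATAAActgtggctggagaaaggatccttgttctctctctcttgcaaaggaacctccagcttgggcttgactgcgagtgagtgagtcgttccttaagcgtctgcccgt
Nfkbia: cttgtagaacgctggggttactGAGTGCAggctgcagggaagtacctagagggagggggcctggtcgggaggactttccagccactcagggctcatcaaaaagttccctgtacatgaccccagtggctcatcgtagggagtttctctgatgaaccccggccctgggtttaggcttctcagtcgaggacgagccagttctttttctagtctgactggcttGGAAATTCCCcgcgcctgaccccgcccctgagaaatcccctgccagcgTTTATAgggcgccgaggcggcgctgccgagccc
Mt2A: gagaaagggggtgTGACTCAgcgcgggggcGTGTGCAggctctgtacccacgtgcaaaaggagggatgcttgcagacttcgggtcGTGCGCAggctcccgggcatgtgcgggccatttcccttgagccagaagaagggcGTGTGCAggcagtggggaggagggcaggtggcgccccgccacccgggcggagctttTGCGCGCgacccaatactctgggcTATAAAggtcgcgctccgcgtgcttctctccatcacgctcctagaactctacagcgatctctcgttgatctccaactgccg
The element TGACGTCA lay 66 to 59 bases before the start of Ppp1r15a and 207 to 200 before that of Rcan1, the NF-kappaB site 31 to 22 bases before that of Nfkbia, and the metal response element occurred 4 times before that of Mt2A. Counted from the start, TGANTCA lay at -6 to 1 in Ppp1r15a, at -142 to -136 in Rcan1 and at -237 to -231 in Mt2A, and the TATAAA of Nfkbia lay on the opposite strand and after the start, at 18 to 23. The 2 TATA matches of Rcan1 overlap each other.

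Among the genes tested 9414 of 11319 had a promoter in the table. TGACGTCA stood in 5 of the 102 promoters (4.9%) of the genes that rose at least 2-fold and in 1 of 20 (5%) of those that fell at least 2-fold, against 3.2% of all promoters of tested genes. TGANTCA stood in 11 of the 102 (10.8%) and in 0 of the 20, against 5.08%. The NF-kappaB site stood in 14 (13.7%) and in 3 (15%), against 9.82%. The metal response element stood in 38 (37.3%) and in 11 (55%), against 36.4%. TATAAA stood in 24 of the 102 (23.5%) and in 6 of the 20 (30%), against 7.13% of tested genes and 14.3% of all promoters of the table. Among all genes that rose or fell it stood in 8.49% and 8.04%. Nfkbia rose by less than 2-fold and is not among the 102. Of the 20 largest rises 15 had a promoter. Of these 15, TGACGTCA stood in 0, TGANTCA in 1, the NF-kappaB site in 3, and the metal response element and TATAAA in 7 each. Of the 19 named largest falls 14 had a promoter, and the counts in the same order were 1, 0, 2, 8 and 5. These counts and shares describe letters in a window, and no test was made of them.

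The same dose was set against 0.5 mg/kg at 6 h, without saline. Of the 11319 genes 955 (8.44%) differed, 650 higher (5.74%) and 305 lower (2.69%) at 3 mg/kg. Of the 1769 genes that rose against saline 631 were also above the 0.5 mg/kg hearts and 0 below, and of the 868 that fell 249 were also below and 0 above. These 2 comparisons share the 3 mg/kg arrays. The number rests on single arrays: it was 189 without replicate 1 at 3 mg/kg, 459, 573 and 572 without replicates 1, 3 and 5 at 0.5 mg/kg, and 1533 without replicate 6 at 0.5 mg/kg, the array that lay at 0.869 of the response. With the 12 arrays of these 2 groups fitted alone, limma called 0 genes, 1663 had an unadjusted p under 0.05 and the smallest adjusted p was 0.101, so every dose call named here rests on the spread taken from all groups.

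None of the 9 alpha and beta tubulins tested was called between the doses. Tuba4a had 556, 661 and 841 at 3 mg/kg and 554, 741 and 817 at 0.5 mg/kg, a log2 difference of -0.12 ± 0.49 SE, adjusted p = 0.92, and Tubb4b had 430.0, 490.0 and 1228 and 508, 676 and 709, a difference of -0.21 ± 0.42 SE, adjusted p = 0.809. Of the 9 tubulins 0 passed the dose test in either direction, and both dose groups lay below the saline hearts for Tuba4a, Tubb4b and Tuba8. Against saline, Tuba8 changed by -1.79 at 0.5 mg/kg and -2.35 at 3 mg/kg, Tubb2a by -1.07 and -1.54, and Tubb5 by -1.18 and -1.41. A gene of the gamma tubulin and ring complex list (1 of 9) was called lower at 3 mg/kg. A p above the threshold does not show equal levels. Tnfrsf12a and S100a9 were called between the doses. Tnfrsf12a had 1067, 1408 and 1725 at 3 mg/kg and 162, 186 and 1565 at 0.5 mg/kg (2.35 ± 0.47 SE, adjusted p = 0.00229), and S100a9 had 685, 951 and 1194 and 52.7, 109 and 1139 (2.39 ± 0.53 SE, adjusted p = 0.00389). For both genes the highest 0.5 mg/kg value came from a single array, replicate 6, inside the 3 mg/kg range.

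Other genes above their 0.5 mg/kg level were Rhou (2.07 ± 0.43 SE, adjusted p = 0.00324), Otud1 (2.00 ± 0.57 SE, adjusted p = 0.0194), Rnd1 (1.95 ± 0.44 SE, adjusted p = 0.00429) and Cdo1 (1.90 ± 0.41 SE, adjusted p = 0.00354), and all 4 stayed past the threshold without replicate 1 and without replicate 6 at 0.5 mg/kg. The call of Otud1 was lost without replicate 3 or 5 at 0.5 mg/kg (adjusted p = 0.0506 and 0.0609). Without the arrays that carry the suffix, which leaves out replicate 1 at 3 mg/kg and replicate 2 at 0.5 mg/kg, all 4 lost it, at adjusted p values of 0.0547 for Rhou, 0.112 for Otud1, 0.128 for Rnd1 and 0.101 for Cdo1. Mt2A and Hamp differed by 1.97 and 2.01 (adjusted p = 0.00576 and 0.013), but by 1.36 (adjusted p = 0.0802) and 1.304 (adjusted p = 0.174) without replicate 1. Below their 0.5 mg/kg level lay Eppk1 (-1.37 ± 0.31 SE, adjusted p = 0.00429), C2cd4b (-1.35 ± 0.32 SE, adjusted p = 0.00663) and Rev3l (-1.15 ± 0.27 SE, adjusted p = 0.00617), which also held without replicate 1 but not without the arrays that carry the suffix (adjusted p = 0.104, 0.069 and 0.129). The differences of Aplnr, Perm1, Ddit4l, an inhibitor of mTORC1, and Lrrc10, a cardiac actin-binding protein, were -1.18, -1.02, -0.96 and -0.92 and lost their calls without it, at adjusted p values of 0.175, 0.344, 0.215 and 0.196.

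The change at 24 h was set against the change at 6 h, each from saline of the same time, in an interaction test. It gave 497 genes (4.39%), 201 with a higher (1.78%) and 296 with a lower change at 24 h (2.62%). Of the 1769 genes that rose at 6 h, 230 had a lower change at 24 h and 4 a higher one, and of the 868 that fell, 99 had a higher change and 0 a lower one. The 6 h arrays enter both comparisons. The number was 318 and 330 without saline replicates 3 and 6 at 6 h.

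Of the 9 tubulins 4 had a higher change at 24 h than at 6 h (Tubb2a, Tubb4b, Tubb5 and Tubb2b) and 1 a lower one (Tubb1). Tubb2a had 1561, 1967 and 2482 in vinblastine hearts and 641, 1024 and 1157 in saline hearts at 24 h, above saline where it had been below at 6 h, with a difference between the changes of log2 2.62 ± 0.49 SE, adjusted p = 0.00106. Tubb4b had 2439, 2800 and 3342 in vinblastine and 1876, 3423 and 4112 in saline hearts at 24 h (2.35 ± 0.59 SE, adjusted p = 0.0132). Tubb5 differed by 1.62 ± 0.38 SE, adjusted p = 0.00652. The dim Tubb2b and Tubb1 differed by 0.40 ± 0.09 SE, adjusted p = 0.00617, and -0.68 ± 0.20 SE, adjusted p = 0.0312. Tuba4a had 2027, 2672 and 3371 in vinblastine and 2958, 5990 and 6881 in saline hearts at 24 h, and its difference did not pass (1.95 ± 0.69 SE, adjusted p = 0.0832).

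Rises at 6 h were smaller at 24 h for S100a8, which stood at 28.5, 32.1 and 40.3 in vinblastine and 23.8, 26.2 and 29.3 in saline hearts at 24 h (-2.19 ± 0.45 SE, adjusted p = 0.00211), for Rnd1 (-2.55 ± 0.63 SE, adjusted p = 0.0108), Lmcd1 (-2.01 ± 0.43 SE, adjusted p = 0.00293) and Rhou (-2.14 ± 0.61 SE, adjusted p = 0.0294). S100a9 (-2.59 ± 0.75 SE, adjusted p = 0.0323), Otud1 (-2.67 ± 0.80 SE, adjusted p = 0.0409), Atf3 (-2.12 ± 0.66 SE, adjusted p = 0.047) and Cdo1 (-1.89 ± 0.59 SE, adjusted p = 0.0467) passed with all arrays, but lost the call in 3, 6, 10 and 8 of the 12 fits that left out a single 6 h array, with adjusted p values up to 0.0546, 0.0659, 0.0737 and 0.118. Fitted on the 4 groups alone, all 4 genes passed. Of the falls, G0s2 stood at 788, 1311 and 1607 in vinblastine and 259, 622 and 837 in saline hearts at 24 h (2.51 ± 0.55 SE, adjusted p = 0.00417), Tnfsf10 at 161, 197 and 260.2 and 85.0, 111 and 145 (1.53 ± 0.32 SE, adjusted p = 0.00272) and C1qa at 480.3, 537 and 672 and 300.4, 331 and 385 (1.51 ± 0.35 SE, adjusted p = 0.00706). For these 3 the median at 24 h was higher with vinblastine, where that at 6 h had been lower. C2cd4b (1.65 ± 0.46 SE, adjusted p = 0.0251) and Eppk1 (1.55 ± 0.44 SE, adjusted p = 0.0295) also differed, and Eppk1 lost the call without replicate 1 or 4 (adjusted p = 0.0615 and 0.0534). Without the arrays that carry the suffix the calls of Rhou, Otud1, Atf3, Cdo1, C2cd4b and Eppk1 were lost, at adjusted p values of 0.06, 0.0528, 0.0953, 0.113, 0.0654 and 0.0886. Of 20 macrophage markers 10 had a higher change at 24 h and 0 a lower one.

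**Figure D5:**
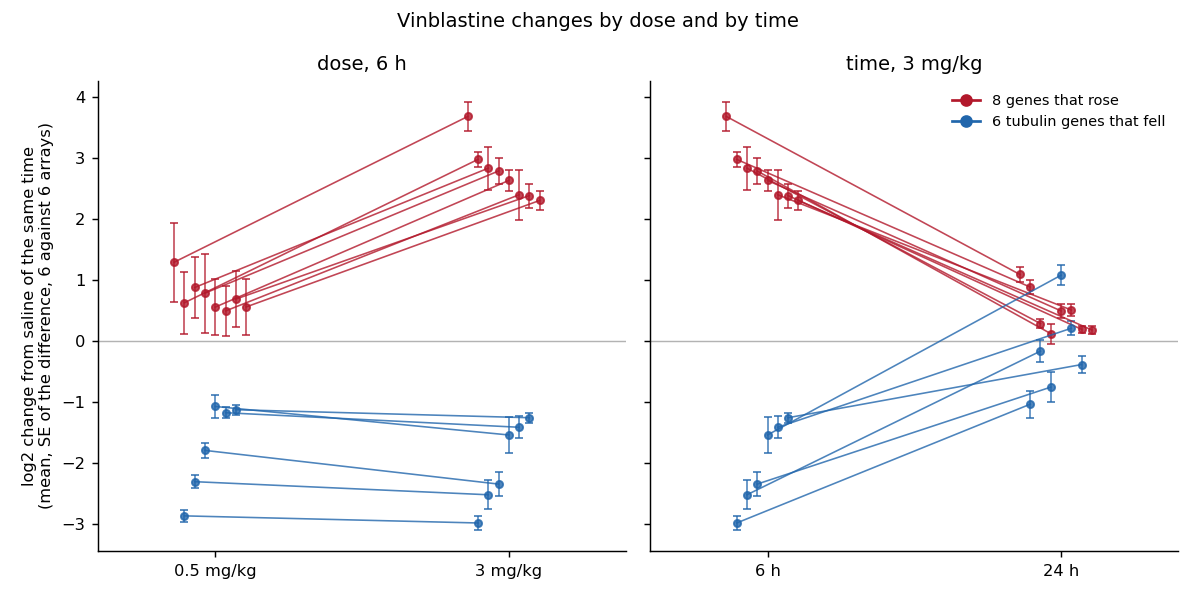
Log2 change from saline of the same time, as the difference of group means with the SE of the difference (6 against 6 arrays), at 6 h by dose (left) and at 3 mg/kg by time (right). Red lines are 8 genes that rose (S100a9, Tnfrsf12a, Rnd1, Otud1, Rhou, Cdo1, S100a8, Atf3) and blue lines 6 tubulin genes that fell (Tuba4a, Tubb4b, Tuba8, Tubb2a, Tubb5, Tubg1). At 6 h the red lines lie higher at 3 mg/kg than at 0.5 mg/kg and the blue ones lie below 0 at both doses. At 24 h Tubb2a (1.08) and Tubb5 (0.21 ± 0.11 SE) lie above 0, Tubb4b (-0.17 ± 0.18 SE) lies near 0, and the other blue lines lie below it.

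A further 4961 probe sets that could not be tied to a single symbol passed the filter on low values, and 622 of them (12.5%) differed at 6 h, 318 higher and 304 lower.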

How the data were processed

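Heart RNA was extracted with a Qiagen kit and labelled with an Affymetrix 3' IVT kit, per the labels' protocols. The deposited values are linear intensities, 1 per probe set and array. The authors' summarisation and normalization are not given in the sources used here. Of 31099 probe sets, 20826 had 1 symbol in the platform annotation, for 14217 genes. Each gene took its brightest probe set. Genes were kept if above the 40th percentile of the array on at least 5 arrays, and log2(intensity + 16) was fitted for 11319 genes with limma 3.58.1 in R 4.3.3, as group means over all 82 arrays (residual df 68, prior df 4.7). P-values were adjusted over all genes (Benjamini-Hochberg, threshold 0.05, two-sided). Fold changes on this scale understate those of dim genes. The test was first run on data simulated for the main comparison over 11319 genes. Alternatives changed the filter, the added value (1 or 64), normalization, probe set rule, arrays and fit.

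Named genes came from a rule: among calls ranked by log2 change, the top 20 in each direction with every vinblastine array on the same side of the saline mean, the 3 largest rises and falls past the threshold in each list, all tubulins and cardiomyocyte markers, and the 8 largest dose and time differences in each direction among genes changed at 6 h. Placeholder symbols (LOC, RGD) enter counts without being named, and genes of the rule not described here are counted in their lists. The comparison, the gene lists and their members were chosen with earlier results of these data known. Promoters came from RefSeq (GRCr8). Animals within a group are separate rats by the protocol's count per group, but the labels do not number animals. Vincristine and colchicine arrays entered only the variance estimate and the array distances.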

Additional observations from a re-analysis of the deposited data

Results flagged for a closer look

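For each gene named above and for Trim54, the gap between the most extreme array of a group and its nearest neighbour was divided by the range of the group on the log2 scale. Values above Dixon's 95% limit for 6 arrays are given here. They came up in 50 of 244 groups, 34 with vinblastine replicate 1 as the highest array and 10 with it as the lowest. The limit flags about 1 in 20 independent, unselected groups. That rate is no yardstick here, because every gene was read on the same arrays and many were chosen by their change on them. Replicate 1 was the highest vinblastine array for Tubb4b at 0.814, Tubb2a at 0.770, Tubb5 at 0.731, Tubb6 at 0.912, Cct2 at 0.752, Cct3 at 0.753, Rnd1 at 0.704, Ccn2 at 0.759 and Ankrd23 at 0.724. It was also the highest for Csrp3 at 0.713, Myh7 at 0.761, Trim54 at 0.674, Lcn2 at 0.852, Fgl2 at 0.693, C1qa at 0.674, Angpt2 at 0.680, Slc3a2 at 0.821 and Tars1 at 0.710. The same held for Ddx21 at 0.823, Gar1 at 0.842, Psmd8 at 0.744, Psma5 at 0.780, Rpl3 at 0.821, Angptl4 at 0.634, Mt2A at 0.719, Cebpb at 0.768 and Pnpla2 at 0.784. Others with it highest were Myc at 0.749, Cdkn1a at 0.687, Rgs2 at 0.850, Rab30 at 0.639, Tinagl1 at 0.738, Hamp at 0.879 and Timp1 at 0.704. Replicate 1 was the lowest vinblastine array for Lmod2 at 0.942, Aplnr at 0.686, Hey1 at 0.746, Ppargc1a at 0.789, Perm1 at 0.764, Kcnh2 at 0.692, Kcnj11 at 0.637, Efhd1 at 0.815, Islr at 0.654 and Lrrc10 at 0.693. Other arrays stood out for Clip1 at 0.679 (vinblastine replicate 6 lowest), RT1-Db1 at 0.679 (vinblastine replicate 2 lowest), Gar1 at 0.693 (saline replicate 5 highest), Ppargc1a at 0.656 (saline replicate 6 lowest), Pde4d at 0.655 (vinblastine replicate 2 highest) and Hamp at 0.889 (saline replicate 2 highest).

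The change from saline differed between 24 h and 6 h in limma's interaction test for 16 named genes, as log2 change at 24 h minus log2 change at 6 h. It was 2.35 for Tubb4b, 2.62 for Tubb2a, 1.62 for Tubb5, 1.51 for C1qa, 2.51 for G0s2, 1.55 for Eppk1, 1.65 for C2cd4b and 1.53 for Tnfsf10, and -2.55 for Rnd1, -2.14 for Rhou, -2.01 for Lmcd1, -2.59 for S100a9, -2.19 for S100a8, -2.12 for Atf3, -2.67 for Otud1 and -1.89 for Cdo1. How far these results depend on single arrays is given beside them above, and their causes were not tested.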

How the results depend on the processing

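Of 153 log2 values of named genes, 102 kept their direction and their side of the threshold under every alternative tried and 150 kept their direction. Leaving out 1 array of the compared groups at a time, the number of changed genes ranged from 1381 (without vinblastine replicate 1) to 2982, with 942 to 2039 higher and 439 to 1027 lower. The dose comparison ranged from 189 to 1533 genes and the comparison of times, in which only 6 h arrays were left out, from 318 to 733. With the compared groups fitted alone there were 958 changed genes (593 higher and 365 lower), 0 for the dose and 334 for the times. With replicate 1 also left out, an alternative chosen after seeing the data, there were 1288 (841 higher and 447 lower) and 3 for the dose. Without the arrays whose description ends in the shared suffix there were 1314 (969 higher and 345 lower) and 33 for the dose. Without the 10 arrays of the series nearer to another group by a ratio over 1.3, 1160 were higher and 918 differed between times. Quantile normalization gave 1313 lower, and array weights 1278 between times. The cause was not tested.

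Values near 0 changed sign: Tnnt2 to -0.046 with the mean of its probe sets, Myh6 to -0.035 with quantile normalization and between -0.019 and 0.037 with single arrays left out, and Tubb1 between -0.036 and 0.057 with single arrays left out. None of these passed the threshold.

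Groups share replicate numbers 1 to 6, but deviations of same-numbered arrays correlated between -0.0597 and 0.224, 3 of 6 pairs over 0.1 and 2 of 6 vinblastine arrays best with their own number, so the numbers were not taken to pair the animals. With the replicate number as a block there were 2686 changed genes (1774 higher and 912 lower), 1008 for the dose and 508 for the times. The number of arrays limits the precision.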

Other observations

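Some groups not described above also held changed genes at 6 h. Of all genes tested 15.6% rose and 7.67% fell, or 8.32% and 3.88% without replicate 1, and some shares below are near these. Of 13 polyamine genes 5 rose and 0 fell, with or without replicate 1. Of 24 nuclear transport genes 10 rose and 1 fell, and 3 and 2 without it. Of 35 Rab, Golgi and secretory genes 16 rose and 1 fell, and 8 and 0 without it. Of 36 TGF-beta, activin and BMP genes 10 rose and 4 fell, and 6 and 2 without it. Of 8 atrial markers 0 passed in either direction, while their summed intensity ran from 9462 to 18890 in vinblastine hearts, with replicate 1 highest, and from 6901 to 24000 in saline hearts.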
